A study of Mus musculus with 12 samples.

Results

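A group of 10 genes of the urea cycle and of periportal hepatocytes was followed in mouse liver: Ass1, Asl, Cps1, Otc, Arg1, Sds, Hal, Gls2, Cyp2f2, and Pck1. They were given as a list of symbols, with no threshold on any value, and all 10 were matched to their Ensembl identifiers among the 40551 genes counted. The libraries were total RNA-seq of the livers of 12 mice, with 3 mice of each of 4 genotypes. Mcl1Δhep livers lacked the antiapoptotic gene Mcl1 in hepatocytes, where the albumin promoter drives the Cre recombinase that cuts floxed Mcl1, so other liver cells kept the gene. Sting1-/- mice lacked the DNA-sensing adaptor STING in the whole body, Mcl1Δhep Sting1-/- mice carried both changes, and WT mice carried neither. WT and Mcl1Δhep livers for transcriptomics were taken at 2 months of age, and the age behind the Sting1-/- and Mcl1Δhep Sting1-/- libraries was not given in the sources used here. No treatment was given by the labels. Both sexes entered the study, and the labels do not give the sex of a mouse.

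The liver detoxifies ammonia in the urea cycle. CPS1 and OTC work in the mitochondrion and make citrulline, and ASS1, ASL, and ARG1 turn it in the cytosol into urea and ornithine. Hepatocytes near the portal vein carry most of this pathway together with amino acid breakdown and gluconeogenesis, whereas hepatocytes around the central vein carry glutamine synthesis and much drug metabolism. SDS and HAL break down serine and histidine, GLS2 releases ammonia from glutamine, PCK1 commits carbon to gluconeogenesis, and CYP2F2 is a cytochrome P450 widely used as a marker of periportal hepatocytes. Sds and Pck1 are known to respond to fasting, glucagon, and glucocorticoids.

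The 12 libraries held 28826367 to 45266387 counts on genes, and 15070 genes passed the filter on low counts, all 10 members among them, with at least 1866 counts per library (Sds). Levels of 1 gene between libraries are given as CPM, counts relative to library size scaled with edgeR's TMM factors. Mcl1 had 90.2 to 104 CPM in WT and 77.0 to 90.1 in Sting1-/- libraries against 25.0 to 34.0 in Mcl1Δhep and 18.1 to 26. in Mcl1Δhep Sting1-/- libraries, without overlap. Sting1 had 2.11 to 2.53 CPM in WT, 3.67 to 6.0 in Mcl1Δhep, 1.90 to 2.53 in the libraries labelled Mcl1Δhep Sting1-/-, and 1.16 to 2.70 in those labelled Sting1-/-, so these counts overlapped those of WT and do not check the Sting1 labels. Whether the remaining reads came from outside the deleted stretch is not told by gene counts, and in these libraries every direction given below for a Sting1-/- genotype rests on the label. The paper reports that Western blotting showed the knockout in Sting1-/- mice. It also reports that their splenocytes did not phosphorylate IRF3 after a STING agonist. Neither check is tied to the livers of these libraries. Y-linked genes were expressed (142 to 147 CPM summed, before TMM scaling) in WT replicates 2 and 3 and in Mcl1Δhep Sting1-/- replicate 1 but not in the other 9 libraries (0 to 0.201). Small structured RNAs took 2.37% and 1.36% of the counts in Mcl1Δhep replicates 2 and 3 against 0.172 to 0.897% elsewhere, and in the same libraries transcripts over 6000 bases were lower than those under 2000 bases relative to WT, with a difference of their medians of −0.60 and −0.65 on the log2 scale against −0.18 to 0.12 in the other libraries. Skeletal muscle markers summed to 1314 CPM in Mcl1Δhep replicate 3 and to at most 6.97 in every other library. The 15 hepatocyte reference genes, which check the tissue, summed to 158965 to 209147 CPM in WT and to 167088 to 209056 in Mcl1Δhep libraries. These are whole livers, in which fewer cells of a type and less RNA per cell cannot be told apart.

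The stretches of genome just upstream of 4 members are shown because these members differ most in how their RNA behaved: Cyp2f2 was the member past the test between Mcl1Δhep and WT, Sds had the largest difference and the widest range, Otc the narrowest range, and Hal the second widest range with the most motif matches. Each stretch starts 250 bases before the canonical transcript in GENCODE vM39 and stops before the first base of any annotated exon of the gene. It is read from GRCm39, 5′ to 3′ on the strand of the gene. Capitals mark every match, on either strand, to a motif of regulators known at liver genes: the cAMP response element TGACGTCA and its core TGACG, the C/EBP motif TTNNGNAA, the glucocorticoid site TGTTCT, the HNF1 site GTTAAT, the HNF4-type CAAAGTCCA, the TCF/LEF motif CTTTGAT, and the TATA box TATAAA. Matches of TGACG include those inside TGACGTCA.
Cyp2f2, chr7:26819073-26819321, plus strand: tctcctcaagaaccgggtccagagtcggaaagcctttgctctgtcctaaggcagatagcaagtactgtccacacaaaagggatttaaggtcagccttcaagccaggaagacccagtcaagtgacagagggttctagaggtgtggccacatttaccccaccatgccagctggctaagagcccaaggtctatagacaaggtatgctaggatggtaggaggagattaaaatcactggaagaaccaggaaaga
Sds, chr5:120614335-120614584, plus strand: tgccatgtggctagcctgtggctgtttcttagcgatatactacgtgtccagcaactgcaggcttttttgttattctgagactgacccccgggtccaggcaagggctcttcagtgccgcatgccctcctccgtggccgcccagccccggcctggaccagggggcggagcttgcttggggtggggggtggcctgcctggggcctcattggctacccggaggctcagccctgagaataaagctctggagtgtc
Otc, chrX:10118253-10118502, plus strand: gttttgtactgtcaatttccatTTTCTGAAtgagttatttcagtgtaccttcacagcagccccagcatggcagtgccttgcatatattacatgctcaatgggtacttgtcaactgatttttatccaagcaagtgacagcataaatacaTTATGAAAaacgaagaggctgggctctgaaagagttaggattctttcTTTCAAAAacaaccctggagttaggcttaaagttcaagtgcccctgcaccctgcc
Hal, chr10:93324379-93324628, plus strand: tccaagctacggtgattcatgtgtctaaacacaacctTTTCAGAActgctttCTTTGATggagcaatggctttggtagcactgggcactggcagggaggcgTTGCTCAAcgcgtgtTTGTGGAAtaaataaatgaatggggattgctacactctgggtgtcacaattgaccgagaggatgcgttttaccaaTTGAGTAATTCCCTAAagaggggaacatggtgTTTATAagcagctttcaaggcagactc
No match lay in the stretches of Cyp2f2 and Sds. Otc had 3 matches to the C/EBP motif, and Hal had 5 of them, none overlapping another, beside 1 TCF/LEF match and 1 TATAAA on the opposite strand, 22 to 27 bases before the start. Over the full 250 bases upstream of all 10 members, which for Asl, Cps1, Arg1, Cyp2f2, and Pck1 include bases of exons annotated for other transcripts, 4 (Otc, Arg1, Hal, and Pck1) held a C/EBP match, as did 37% of 21594 mouse promoters of the same length. TGACG was present upstream of Gls2 and Pck1 and in 18.1% of all promoters, and CTTTGAT upstream of Cps1 and Hal and in 2.84%. Pck1 alone among the members held GTTAAT (6.3% of all) and Hal alone TATAAA (12%). The full cAMP response element (1.69% of all), TGTTCT (14.3%), and CAAAGTCCA (0.375%) were not found in these windows of any member. A match is only a string of letters, and its absence from 250 bases says nothing about the factor.

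Between genes, levels were compared per transcript length, as TPM computed from the deposited counts with the length of the canonical transcript. Averaged over the 12 libraries, Ass1 (2868 TPM) and Cps1 (2609.9) were highest, followed by Pck1 (1712), Arg1 (1582), Cyp2f2 (879.8), Otc (452), Gls2 (346), Asl (338), Sds (293), and Hal (208). Each gene's range over the libraries overlapped that of its neighbour in this order. Ass1 exceeded Cps1 in only 6 of 12 libraries, whereas Arg1 exceeded Cyp2f2, and Cyp2f2 exceeded Otc, in all 12. With the summed length of all annotated exons in place of the canonical transcript, Cps1 came first and Asl last, so the order of neighbours also rests on the transcript assumed. The ratio of the highest to the lowest library was 9.60 for Sds, 4.52 for Hal, 2.16 to 3.10 for 7 other members, and 1.5 for Otc on the TPM scale.

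**Figure D1:**
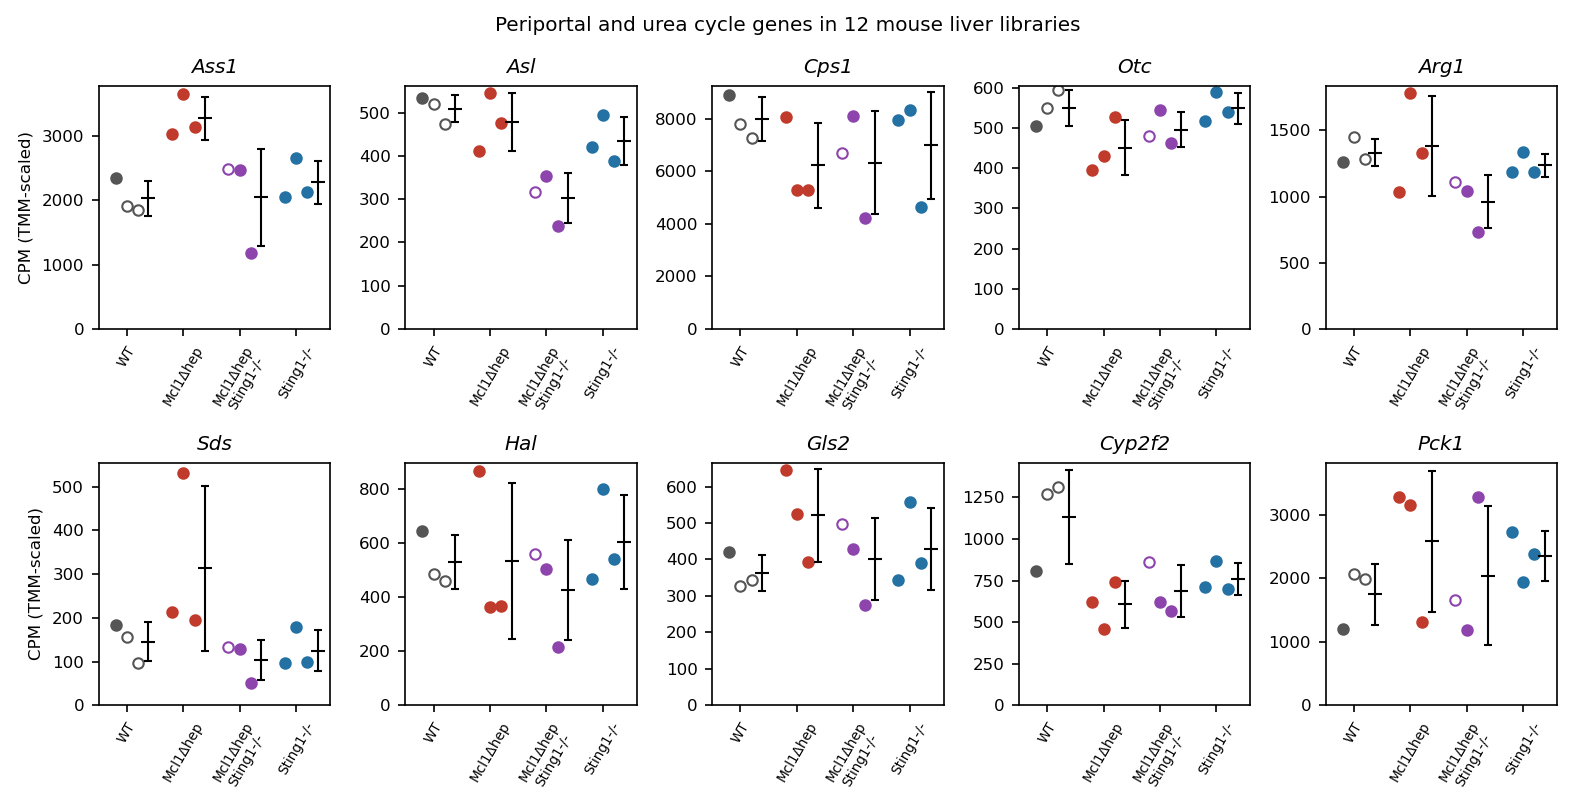
Level of each of the 10 genes (y axis, TMM-scaled CPM, from 0) in every library by genotype (x axis, 3 livers each, replicates 1 to 3 from left to right), with the mean and SD as a black bar, and open circles are libraries with Y-linked expression. Cyp2f2 is highest in WT replicates 2 and 3 (1273 and 1312 CPM), Ass1 is above WT in all 3 Mcl1Δhep libraries, and Sds reaches 531 CPM in Mcl1Δhep replicate 2.

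Between Mcl1Δhep and WT livers, which asks how hepatocytes without Mcl1 hold their periportal program, 1 of 10 members was called by edgeR's quasi-likelihood test at an adjusted p under 0.05 (Cyp2f2, lower) and 0 were called higher, where 20.2% of all 15070 tested genes were called. The members' median log2 fold change was 0.030, beside −0.0049 over all tested genes, with 6 above 0 and 4 below. Livers of the 2 genotypes did not overlap for 3 members (Ass1 and Sds higher and Cyp2f2 lower in Mcl1Δhep), a share near the 33.3% of all tested genes. DESeq2 called these 3 members, Ass1 (adjusted p = 0.0314), Sds (0.0383), and Cyp2f2 (0.00335), and 23.3% of all genes. The fold changes of the 10 genes in 4 comparisons are plotted with their intervals, and the genes are described in the order of their roles.

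**Figure D2:**
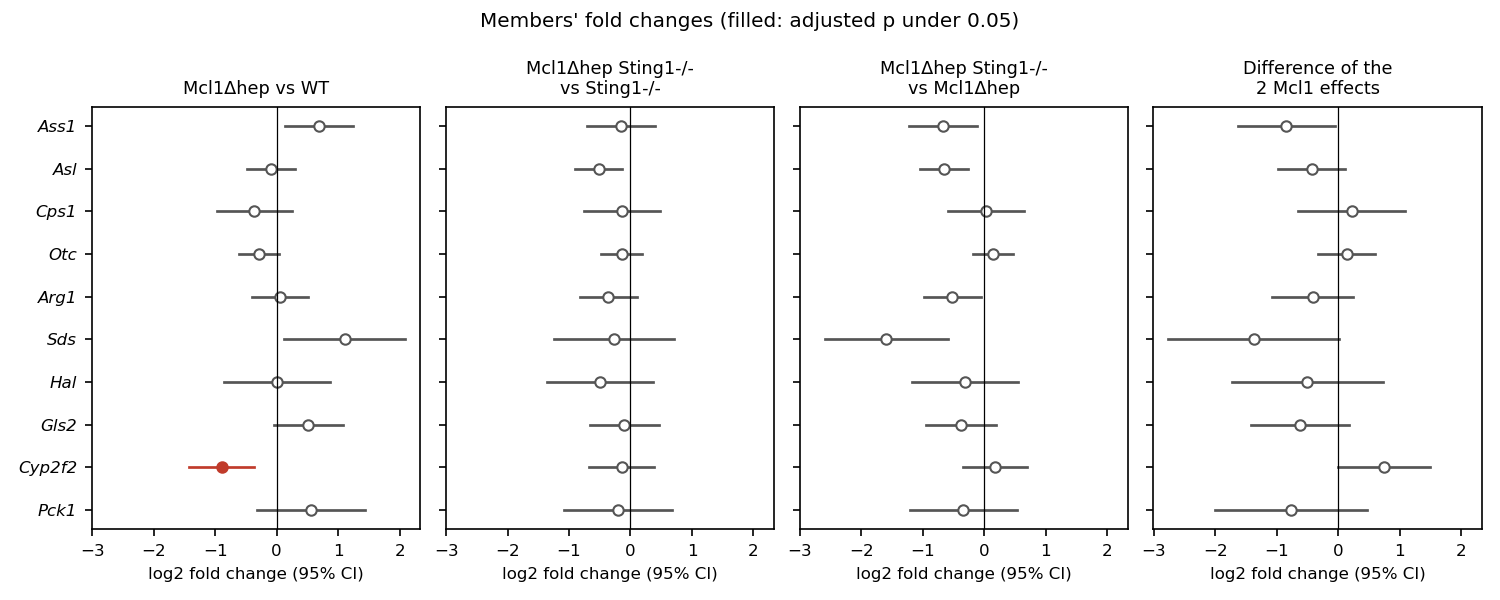
Log2 fold change of each gene (x axis) with its 95% confidence interval from the edgeR model over 12 libraries, for Mcl1Δhep against WT, Mcl1Δhep Sting1-/- against Sting1-/-, Mcl1Δhep Sting1-/- against Mcl1Δhep, and the difference between the first 2, where filled red points are past an adjusted p of 0.05. Cyp2f2 at −0.89 in the first panel is the filled point, and in the second panel all 10 points lie below 0.

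Cps1 (ENSMUSG00000025991, chromosome 1, 67161988 to 67270418, plus strand), carbamoyl phosphate synthetase, admits ammonia to the cycle. In the order of the replicates, its level was 8911, 7798, and 7295 CPM in WT livers and 8095, 5302, and 5306 in Mcl1Δhep livers. Libraries labelled Mcl1Δhep Sting1-/- had 6689, 8111, and 4226 CPM, and those labelled Sting1-/- had 7978, 8343, and 4659.5. In each genotype other than WT at least 1 library lay below every WT library while another lay within or close to the WT range, so the genotypes overlapped. The log2 fold change of Mcl1Δhep against WT was −0.36 (SE 0.28, edgeR adjusted p = 0.376), with a 95% interval of −0.98 to 0.26. Otc (ENSMUSG00000031173, chromosome X, 10118503 to 10187265, plus strand), ornithine transcarbamylase, the next step, had 505, 551, and 594 CPM in WT and 396, 431, and 529 in Mcl1Δhep livers. It had 481, 545, and 463 CPM in Mcl1Δhep Sting1-/- and 517, 591, and 539.7 in Sting1-/- livers. These 12 values lay within 1.5-fold of each other on the TPM scale, and the difference of −0.28 (SE 0.15, edgeR adjusted p = 0.192) between Mcl1Δhep and WT had an interval of −0.61 to 0.044.

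Ass1 (ENSMUSG00000076441, chromosome 2, 31352181 to 31410862, plus strand), argininosuccinate synthetase, joins citrulline and aspartate. It had 2349, 1911, and 1851 CPM in WT and 3037, 3661, and 3140.0 in Mcl1Δhep livers. The lowest Mcl1Δhep library lay above the highest WT library, and the means were 2037 ± 272 and 3279 ± 334 CPM (mean ± SD, n = 3 each). The log2 fold change was 0.69 (SE 0.26, edgeR adjusted p = 0.0750), past the unadjusted but not the adjusted threshold. Ass1 was at 2494, 2481, and 1179 CPM in Mcl1Δhep Sting1-/- livers and at 2059, 2665, and 2126 in Sting1-/- livers. Replicate 3 of Mcl1Δhep Sting1-/- was the lowest of all 12 libraries, and without it edgeR called Ass1 higher in Mcl1Δhep than in WT (log2 fold change 0.70, adjusted p = 0.0181), since that library enters the shared estimate of the spread.

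Asl (ENSMUSG00000025533, chromosome 5, 130040099 to 130058088, minus strand), argininosuccinate lyase, acts on the product of ASS1. It had 536, 520.3, and 475 CPM in WT and 412, 548, and 477 in Mcl1Δhep livers, with overlap and a log2 fold change of −0.092 (SE 0.18, edgeR adjusted p = 0.740). In livers labelled Mcl1Δhep Sting1-/- it had 318, 353, and 239 CPM and in those labelled Sting1-/- 421, 496, and 389. All 3 Mcl1Δhep Sting1-/- libraries were below all 9 others, and the share of all genes that did so was not counted. Between this genotype and Sting1-/- 22.3% of all genes did not overlap in either direction, and between it and Mcl1Δhep 18.2% did not. These shares are for 3 libraries against 3, so they are no background for 3 against 9, and how unusual Asl is here is not told. Arg1 (ENSMUSG00000019987, chromosome 10, 24791118 to 24803817, minus strand), arginase, releases urea. It had 1259.6, 1448, and 1288 CPM in WT and 1034, 1784, and 1329 in Mcl1Δhep livers, where replicates 1 and 2 were the lowest and the highest of these 6 libraries (log2 fold change 0.054, SE 0.21, edgeR adjusted p = 0.877). Mcl1Δhep Sting1-/- livers had 1110.1, 1041, and 731 CPM and Sting1-/- livers 1189, 1334, and 1183, and the first did not overlap the second.

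The ratio of Ass1 to Asl within a library does not depend on the scaling between libraries. On the TPM scale it was 6.62, 5.55, and 5.88 in the WT livers and 11.1, 10.1, and 9.95 in the Mcl1Δhep livers. It was 11.8, 10.6, and 7.44 in Mcl1Δhep Sting1-/- and 7.39, 8.12, and 8.26 in Sting1-/- libraries. All 3 Mcl1Δhep ratios were above all 6 ratios of WT and Sting1-/- livers, and replicate 3 of Mcl1Δhep Sting1-/- was the library of Mcl1-deleted livers below the highest Sting1-/- ratio. This ratio was taken up after the values of both genes were seen and is given without a test. The share of other gene pairs with such a separation was not counted. Ass1 has the shorter transcript of the pair (1761 bases, Asl 2659). Transcripts under 2000 bases had medians of −0.068, 0.28, and 0.25 (log2, relative to WT) in Mcl1Δhep replicates 1 to 3. The part of this in the ratio was not tested. The ratio of Cps1 to Otc, the mitochondrial pair, was 7.5, 6.02, and 5.22 in WT and 8.70, 5.23, and 4.27 in Mcl1Δhep livers. It was 5.91, 6.33, and 3.88 in Mcl1Δhep Sting1-/- and 6.56, 6.0, and 3.67 in Sting1-/- livers, and the 4 genotypes overlapped.

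Sds (ENSMUSG00000029597, chromosome 5, 120614585 to 120621997, plus strand), serine dehydratase, turns serine into pyruvate and ammonia. It had 184, 156, and 96.9 CPM in WT and 212, 531, and 196 in Mcl1Δhep livers. All 3 Mcl1Δhep libraries were above WT, but replicates 1 and 3 only just, and replicate 2 carried most of the difference. The log2 fold change of 1.11 (SE 0.45, edgeR adjusted p = 0.101) had an interval of 0.11 to 2.10. Mcl1Δhep Sting1-/- livers had 132, 128, and 51.1 CPM, all below the Mcl1Δhep libraries, and Sting1-/- livers had 96.7, 178, and 99.7. Sds overlaps Plbd2 on the opposite strand, and the sources used here do not say whether strand was used in counting. Plbd2 had 1128 to 2381 counts per library against 1866 to 17362 for Sds, up to 77.8% of the counts of Sds, so the level of Sds is uncertain by what the overlap holds. Sds and Ass1 have short transcripts (1218 and 1761 bases), as do Arg1 and Cyp2f2 (1611 and 1882). The median of transcripts under 2000 bases relative to WT was −0.068, 0.28, and 0.25 (log2) in Mcl1Δhep replicates 1 to 3. The part of this in the members' values was not tested.

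Hal (ENSMUSG00000020017, chromosome 10, 93324629 to 93355166, plus strand), histidase, had 645, 485, and 458 CPM in WT and 865, 363, and 367 in Mcl1Δhep livers. Replicate 1 of Mcl1Δhep was the highest of all 12 libraries and replicates 2 and 3 lay below WT, which gave a log2 fold change of 0.0066 (SE 0.40, edgeR adjusted p = 0.992) and a wide interval of −0.86 to 0.87. Hal and Cps1 have the longest transcripts of the members (5320 and 5555 bases), and both were low in Mcl1Δhep replicates 2 and 3, the libraries in which long transcripts were lower, and the part of this in their values was not tested. Without replicate 1 the log2 fold change of Hal was −0.54, not past the threshold. In Mcl1Δhep Sting1-/- livers Hal had 561, 505, and 216 CPM, and in Sting1-/- livers 468, 798, and 542. Gls2 (ENSMUSG00000044005, chromosome 10, 128030316 to 128045873, plus strand), the liver glutaminase, had 419, 328, and 343 CPM in WT and 645, 525, and 392 in Mcl1Δhep livers, with overlap (log2 fold change 0.52, SE 0.26, edgeR adjusted p = 0.169). It had 497, 428, and 276 CPM in Mcl1Δhep Sting1-/- and 343, 557, and 389 in Sting1-/- livers. The ratio of Gls2 to Cps1, which uses the ammonia that GLS2 releases, was 0.100, 0.0897, and 0.100 in WT and 0.170, 0.211, and 0.157 in Mcl1Δhep livers on the TPM scale, without overlap. It spread from 0.0916 to 0.178 over the other 6 livers. Among single genes 33.3% did not overlap between WT and Mcl1Δhep, which is no background for a ratio, and the share of ratios was not counted. This ratio was also taken up after the values were seen and holds the long Cps1 transcript, low in Mcl1Δhep replicates 2 and 3. Spryd4 overlaps Gls2 on the opposite strand with at most 9.54% of its counts.

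Cyp2f2 (ENSMUSG00000052974, chromosome 7, 26819322 to 26833090, plus strand) fell in Mcl1Δhep livers. It had 804, 1273, and 1312 CPM in WT and 621, 461, and 743 in Mcl1Δhep livers, so all 3 Mcl1Δhep libraries were below WT (means 1129.9 ± 282 and 608 ± 141 CPM, SD, n = 3 each). The log2 fold change was −0.89 (SE 0.24, edgeR adjusted p = 0.0259), with an interval of −1.42 to −0.36. Mcl1Δhep Sting1-/- livers had 864, 624, and 569 CPM and Sting1-/- livers 709, 867, and 699. The 3 libraries with Y-linked expression were the highest of their genotypes (WT replicates 2 and 3 and Mcl1Δhep Sting1-/- replicate 1), and WT replicate 1, without it, lay at 804 CPM, inside the range of the Sting1-/- livers. With Y-linked expression as a covariate, the log2 fold change was −0.45 (edgeR adjusted p = 0.202), and over the 9 libraries without it, of which WT holds 1, it was −0.41 (edgeR adjusted p = 0.463, chosen after seeing the data). The call was also lost in edgeR without WT replicate 2 (log2 fold change −0.80, adjusted p = 0.0883), without WT replicate 3 (−0.78, 0.0881), and without Mcl1Δhep replicate 2 (−0.73, 0.103). It was lost with the small RNA share as a covariate as well (log2 fold change −0.88, edgeR adjusted p = 0.204). Among 21 alternatives, 13 kept the call. Lung club cells also express Cyp2f2, and 3 of 5 of their markers (Scgb1a1, Scgb3a2, and Sftpb) had 0 counts in every library, with at most 1.45 CPM in any library for all 5 summed.

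Pck1 (ENSMUSG00000027513, chromosome 2, 172994744 to 173001066, plus strand), phosphoenolpyruvate carboxykinase of the cytosol, had 1196, 2059, and 1989 CPM in WT and 3286, 3147, and 1306 in Mcl1Δhep livers. Replicates 1 and 2 of Mcl1Δhep were above WT and replicate 3 was not, with a log2 fold change of 0.56 (SE 0.40, edgeR adjusted p = 0.332). Mcl1Δhep Sting1-/- livers had 1654, 1187, and 3272 CPM, with replicate 3 the highest, where it was the lowest for all 9 other members, and Sting1-/- livers had 2725, 1937, and 2378.

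Between livers labelled Mcl1Δhep Sting1-/- and Sting1-/-, which asks for the Mcl1 effect in mice without STING, edgeR called 0 of 10 members and 0.803% of all genes, and DESeq2 called 0 members. At an unadjusted p under 0.05 in edgeR, 1 member passed (Asl). All 10 log2 fold changes were below 0, from −0.52 (Asl) to −0.10 (Gls2), with a median of −0.18 beside −0.0089 over all tested genes. The 15 hepatocyte reference genes had a median of −0.12 in this comparison, so a lower median was not particular to the members. In the lists described below, it was −0.19 for other periportal markers and −0.19 for amino acid catabolism. For gluconeogenesis it was −0.067, and for other urea cycle and ammonia genes −0.025. Without Mcl1Δhep Sting1-/- replicate 3, Ass1 (0.15), Cps1 (0.10), Sds (0.083), and Gls2 (0.13) were above 0. Without Sting1-/- replicate 2, Cps1 (0.0037), Sds (0.079), and Gls2 (0.13) were above 0, and without Mcl1Δhep Sting1-/- replicate 2, Pck1 was (0.070), so the shared direction held for 5 of 10 members whichever library was left out. Asl and Arg1 were below Sting1-/- in all 3 libraries, and 22.3% of all genes did not overlap between these genotypes in either direction. Their log2 fold changes were −0.52 (SE 0.18, edgeR adjusted p = 0.259) and −0.36 (SE 0.21, edgeR adjusted p = 0.588).

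Mcl1Δhep Sting1-/- livers were compared with Mcl1Δhep livers to ask what the loss of STING changed where hepatocytes lack Mcl1. EdgeR called 0 of 10 members and 0% of all genes, although 3098 genes and 4 members had an unadjusted p under 0.05. DESeq2 called Asl (adjusted p = 0.0154) and Sds (0.0117), both lower, and 4.77% of all genes. The log2 fold changes were −1.59 (SE 0.46, edgeR adjusted p = 0.139) for Sds, −0.68 (SE 0.26, edgeR adjusted p = 0.180) for Ass1, −0.66 (SE 0.18, edgeR adjusted p = 0.133) for Asl, and −0.53 (SE 0.21, edgeR adjusted p = 0.200) for Arg1. Ass1, Asl, and Sds did not overlap between the genotypes, where 18.2% of all genes did not. Of the remaining members, Cps1 (0.025), Otc (0.14), and Cyp2f2 (0.17) were above 0 and Gls2 (−0.38), Pck1 (−0.34), and Hal (−0.32) below. Without Mcl1Δhep replicate 1, edgeR called 3 members lower, Asl (−0.75, adjusted p = 0.0159), Sds (−1.80, 0.0287), and Arg1 (−0.69, 0.0327), and 3108 genes in all. The Mcl1Δhep libraries left in that fit are the pair with the higher share of small RNAs and the lower long transcripts, and the part of these features in the calls was not tested.

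The difference between the 2 Mcl1 effects (with STING lost minus with STING present) was not past the threshold for any member (0% of all genes in edgeR, with 2165 genes at an unadjusted p under 0.05, 2 of the members among them, and 0 members by DESeq2, which called 170 genes). It was −0.84 (SE 0.36, edgeR adjusted p = 0.332) for Ass1, −1.37 (SE 0.64, edgeR adjusted p = 0.351) for Sds, and 0.75 (SE 0.34, edgeR adjusted p = 0.348) for Cyp2f2, and its intervals were as wide as −2.76 to 0.019 for Sds. Averaged over both Sting1 backgrounds, the Mcl1 effect was past the threshold for 0 of 10 members and 16.7% of all genes in edgeR, with 2 members at an unadjusted p under 0.05, and DESeq2 called Cyp2f2 (adjusted p = 0.0223). EdgeR called Cyp2f2 without Mcl1Δhep replicate 3 (−0.60), without Mcl1Δhep Sting1-/- replicate 1 (−0.62), or without WT replicate 1 (−0.62), and Ass1 without Mcl1Δhep Sting1-/- replicate 3 (0.42). The closest in edgeR with all libraries were Cyp2f2 at −0.52 (SE 0.17, edgeR adjusted p = 0.0575) and Asl at −0.31 (SE 0.12, edgeR adjusted p = 0.114). Sting1-/- livers did not differ from WT past the threshold in any member (0% of all genes, 821 genes at an unadjusted p under 0.05 in edgeR, and by DESeq2 0 members and 51 genes), and the member with an unadjusted p under 0.05 was Cyp2f2 at −0.58 (SE 0.24, edgeR adjusted p = 0.858). Over 21 alternatives, this fold change of Cyp2f2 ran from −0.77 to −0.081. The comparisons share libraries, so their values are set side by side and not as repeats of each other.

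In replicate 3 of Mcl1Δhep Sting1-/- 9 of 10 members were below the mean of the genotype, with a median deviation of −0.43 on the log2(CPM + 1) scale, with Hal at −0.86, Sds at −0.89, and Ass1 at −0.72, and Pck1 above it at 0.82. Sting1-/- replicate 2 had 9 members above and replicate 3 had 9 below the mean of the genotype. In Mcl1Δhep the spread was carried by other genes in each liver: Hal was high in replicate 1 (0.83), Sds in replicate 2 (0.92), and Pck1 low in replicate 3 (−0.87). Over the 45 pairs of members, the Pearson correlation across the 12 libraries had a median of 0.23, with 11 pairs above 0.5 and 14 below 0. The closest pairs were Asl and Arg1 (0.90), Ass1 and Sds (0.89), and Ass1 and Gls2 (0.81), and the most opposed was Otc and Pck1 (−0.53). These values are descriptions over 12 points that share genotypes and libraries.

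**Figure D3:**
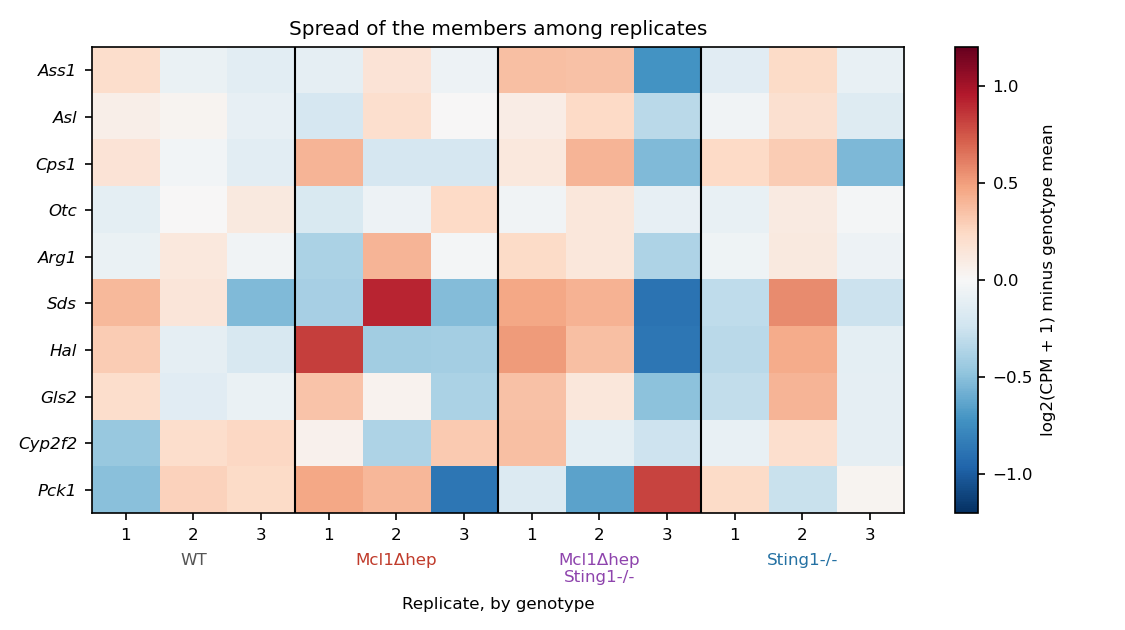
Each gene (rows) in each library (columns, replicates 1 to 3 of each genotype) as log2(CPM + 1) minus the mean of its genotype, with red above and blue below. The column of Mcl1Δhep Sting1-/- replicate 3 is blue for 9 genes and red for Pck1, and Sds, Hal, and Pck1 hold the darkest cells.

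Genes with the pattern most like a member over the 12 libraries, among tested genes with at least 10 CPM on average, were taken for description. For Ass1 they were Plin3 (r = 0.94), Tstd1 (0.91), and Ubr7 (0.88), and for Asl Prmt9 (r = 0.87), Gm50388 (0.85), and Sfxn1 (0.83). For Cps1 they were Orc3 (r = 0.92), Ercc2 (0.89), and Polr3f (0.88), and for Otc Gsdmd (r = 0.95), Grb7 (0.94), and Sephs2 (0.93). Arg1 was most like Gm49027 (r = 0.90), Dusp12 (0.89), and Mrpl44 (0.88), and Sds most like Poglut1 (r = 0.93), Plin3 (0.90), and Nnmt (0.90). For Hal the second was Amdhd1 (0.90), another enzyme of histidine breakdown, after Dctn4 (0.92) and before Lama4 (0.84). Gls2 was most like Agxt (r = 0.87), F11r (0.81), and Aldh1b1 (0.81), 2 of which are in the list of periportal markers. Cyp2f2 was most like Bach1 (r = 0.96), Enpp5 (0.96), and Daglb (0.95), and Pck1 most like Senp5 (r = 0.85), Angptl4 (0.82), and Lysmd3 (0.82). Nothing about shared control follows from likeness over 12 libraries.

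For 4 of these steps, the member was set beside a related gene, called its isozyme here. In WT livers, the member exceeded its isozyme 4041-fold for Arg1 over Arg2, 789-fold for Cps1 over Cad (which holds the cytosolic carbamoyl phosphate activity), 508-fold for Pck1 over mitochondrial Pck2, and 16.5-fold for Sds over Sdsl, on the TPM scale. In Mcl1Δhep livers these were 1709-fold, 490.3-fold, 421-fold, and 14.8-fold. Of these 4 isozymes, Pck2 was past the test. It had 6.62, 6.05, and 5.09 CPM in WT and 10.7, 13.1, and 8.85 in Mcl1Δhep livers, without overlap, and rose by a log2 fold change of 0.88 (SE 0.19, edgeR adjusted p = 0.0101). Livers of both deletions had 9.29, 9.65, and 6.65 CPM of Pck2 and Sting1-/- livers 6.40, 6.61, and 6.32, and its average Mcl1 effect was 0.64 (SE 0.13, edgeR adjusted p = 0.00816). The call between Mcl1Δhep and WT was lost with the share of small RNAs as a covariate, and both calls were lost in libraries without Y-linked expression. For the other 3 the log2 fold changes of Mcl1Δhep against WT were 1.22 (SE 0.45, edgeR adjusted p = 0.0768) for Sdsl, 1.28 (SE 0.50, edgeR adjusted p = 0.0878) for Arg2, and 0.36 (SE 0.34, edgeR adjusted p = 0.468) for Cad, with Arg2 at most 1.19 CPM in any library.

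The genes around the members were counted from fixed lists in the same comparison of Mcl1Δhep with WT, where the median over all tested genes was −0.0049 and 20.2% were called. Of 14 other urea cycle and ammonia genes, 0 rose and 1 fell (median −0.28). This was Aqp9, a channel for glycerol and urea, which went from 543 ± 34.3 to 330.2 ± 104 CPM with a log2 fold change of −0.72 (SE 0.22, edgeR adjusted p = 0.0404). Of 17 other periportal markers, 3 rose and 1 fell (median 0.45). The apolipoprotein gene Apoa4 (201 ± 81.3 to 1406 ± 1239.6 CPM, 2.81, SE 0.60, edgeR adjusted p = 0.00963), the aldehyde dehydrogenase gene Aldh1b1 (1.3, SE 0.41, edgeR adjusted p = 0.0413), and Agxt, which detoxifies glyoxylate (0.60, SE 0.18, edgeR adjusted p = 0.0374), rose, and Pigr, the receptor that carries IgA across epithelia, fell (−1.06, SE 0.28, edgeR adjusted p = 0.0237). Of 33 genes of amino acid catabolism, 1 rose (Agxt) and 5 fell (median −0.17), with lowest adjusted p for Kmo of the kynurenine pathway (−0.62, SE 0.14, edgeR adjusted p = 0.0131) and Mmut, methylmalonyl-CoA mutase (−0.57, SE 0.16, edgeR adjusted p = 0.0257). Of 11 gluconeogenesis genes, Pck2 rose and Pcx, pyruvate carboxylase, fell (−0.61, SE 0.19, edgeR adjusted p = 0.0399, median −0.14). None of the genes named from these lists was past the threshold with the share of small RNAs as a covariate. With the Y-linked covariate, Aqp9, Aldh1b1, Agxt, Kmo, Mmut, and Pcx lost the call, and Apoa4, Pigr, and Pck2 kept it.

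**Figure D4:**
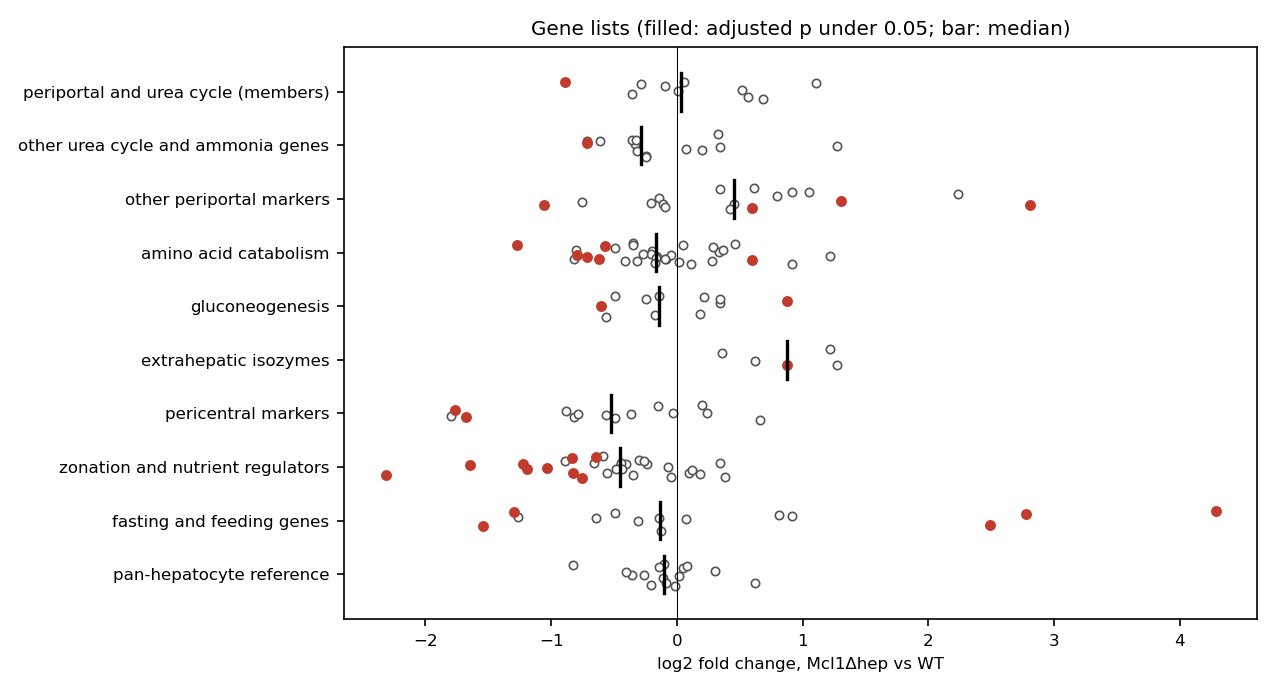
Log2 fold change of Mcl1Δhep against WT (x axis) for each tested gene of 10 lists (rows), with filled red points past an adjusted p of 0.05 in edgeR and black bars at the median. The members' bar lies at 0.030 and that of the zonation and nutrient regulators at −0.46, with 9 red points, all below 0.

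Regulators of zonation and of the response to fasting were counted beside the members. Of 30, 9 fell and 0 rose (median −0.46). The pioneer factor genes Foxa1 (8.42 ± 1.75 to 2.67 ± 0.600 CPM, −1.65, SE 0.25, edgeR adjusted p = 0.00235) and Foxa2 (36.8 ± 4.58 to 15.7 ± 1.88, −1.22, SE 0.19, edgeR adjusted p = 0.00269), the R-spondin receptor gene Lgr4 (−1.19, SE 0.20, edgeR adjusted p = 0.00333), and Onecut1, which codes for HNF6 (66.7 ± 8.14 to 13.3 ± 8.94 CPM, −2.32, SE 0.42, edgeR adjusted p = 0.00483), had the lowest adjusted p among them. Onecut1 was at 17.7 ± 3.47 CPM in Sting1-/- and 16.9 ± 7.47 in Mcl1Δhep Sting1-/- livers. With Y-linked expression as a covariate 10 of 30 fell, and with the share of small RNAs as a covariate, or over the 9 libraries without Y-linked expression, 0 did. Of 14 pericentral markers, 0 rose and 2 fell (median −0.53), Cyp1a2 (796 ± 74.7 to 234 ± 179.6 CPM, −1.77, SE 0.41, edgeR adjusted p = 0.0139) and Cyp2e1 (7017 ± 372 to 2197 ± 1397, −1.68, SE 0.40, edgeR adjusted p = 0.0161), both cytochrome P450 genes of drug and ethanol metabolism. Neither was past the threshold with the small RNA covariate. In livers labelled Mcl1Δhep Sting1-/- against Sting1-/-, 0 genes of these lists were called, and the medians were −0.15 for the regulators and −0.0046 for the pericentral markers.

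The members and the pericentral markers, the opposite ends of the lobule, were set side by side in each library as the mean of log2(CPM + 1) relative to WT. Mcl1Δhep replicates 1 to 3 were at 0.17, 0.20, and −0.10 for the members and at −0.97, −1.18, and 0.12 for the pericentral markers. In Mcl1Δhep Sting1-/- replicates the members were at −0.10, −0.19, and −0.70 and the pericentral markers at −0.62, 0.28, and 0.26. Low pericentral means were found in 3 livers with Mcl1 deleted, Mcl1Δhep replicates 1 and 2 and Mcl1Δhep Sting1-/- replicate 1. The members were at 0.17, 0.20, and −0.10 in these, each outside the WT spread of −0.062 to 0.043. The other periportal markers, averaged in the same way, were at 0.83, 0.67, and 0.26 in these 3 livers. They were at −0.020 in Mcl1Δhep replicate 3 and at −0.18 to 0.28 in WT. The lowest mean of the members, −0.70, was that of Mcl1Δhep Sting1-/- replicate 3, whose pericentral mean was above WT. WT libraries spread from −0.062 to 0.043 for the members and from −0.22 to 0.28 for the pericentral markers, and Sting1-/- libraries from −0.18 to 0.19 and from −0.031 to 0.40. These means weigh each gene equally and are given without a test.

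**Figure D5:**
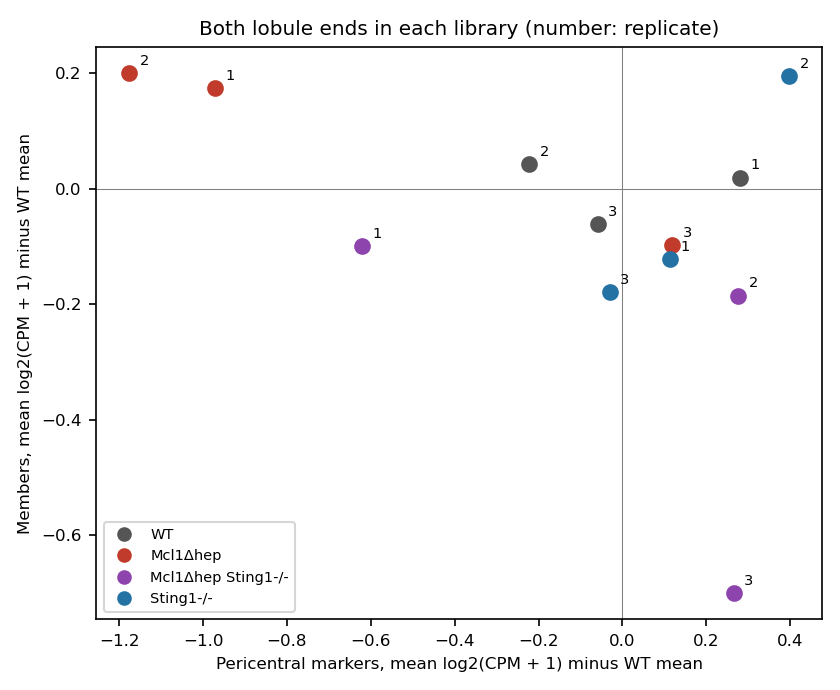
Mean log2(CPM + 1) of the 10 members (y axis) against that of the 14 pericentral markers (x axis) in each of the 12 libraries, both minus the WT mean, colored by genotype and numbered by replicate. Mcl1Δhep replicates 1 and 2 and Mcl1Δhep Sting1-/- replicate 1 lie far to the left with members between −0.10 and 0.20, and Mcl1Δhep Sting1-/- replicate 3 lies alone at the bottom, at −0.70.

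Markers of other liver cells also moved between Mcl1Δhep and WT livers, and their part in the members' values was not tested. In edgeR, 5 of 8 macrophage markers rose (summed 474 to 726 CPM in WT and 887 to 1059 in Mcl1Δhep), with Cd68 at 1.24 (SE 0.22, edgeR adjusted p = 0.00481) and Lyz2 at 1.56 (SE 0.29, edgeR adjusted p = 0.00521). Of 8 stellate cell markers 5 rose (289 to 499 and 680.3 to 790.2 CPM), among them Des (5.03 ± 1.54 to 29.0 ± 35.5 CPM), which muscle also expresses and whose spread in Mcl1Δhep stood beside the muscle marker signal of replicate 3, and with Acta2 at 2.93 (SE 0.52, edgeR adjusted p = 0.00443) and Col3a1 at 1.59 (SE 0.33, edgeR adjusted p = 0.00848). Of 6 neutrophil markers, 5 were tested and all of these rose (3.03 to 4.66 and 9.87 to 22.8 CPM), while Ly6g had 0 counts in WT and Sting1-/- livers. Of 7 tested lymphocyte markers 1 rose (Cd8a, 1.88, SE 0.47, edgeR adjusted p = 0.0174), and of 8 endothelial and 6 tested cholangiocyte markers 0 did. In Mcl1Δhep Sting1-/- livers these lists summed to 819 to 926, 491 to 752, and 6.05 to 6.99 CPM for macrophages, stellate cells, and neutrophils, and in Sting1-/- livers to 603 to 863, 306 to 405, and 2.74 to 6.66. With the share of small RNAs as a covariate, or in libraries without Y-linked expression, 0 genes of these 4 lists with calls were past the threshold, and with the Y-linked covariate 3 macrophage, 3 stellate cell, 1 neutrophil, and 0 lymphocyte markers were. Over the 15 hepatocyte reference genes, the median was −0.10 on the log2 scale and 0 were called. When libraries were scaled on these genes, the median of all genes shifted to 0.10 and Cyp2f2 was at −0.77 (edgeR adjusted p = 0.0553).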

How the data were processed

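Gene counts of 12 mouse livers were analysed. The counts that the authors deposited are raw, whole-number read counts per Ensembl gene with no normalization. Per the submitters' processing notes they were made with STAR and featureCounts on GRCm39, from Illumina NovaSeq reads. Tool versions, annotation, and the use of strand were not given in the sources used here, and the RNA extraction kit in the labels differs from that in the paper's methods. Genotype and replicate were taken from the labels, and each mouse gave 1 library.

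CPM, log2 fold changes, and their tests came from edgeR 4.0.16 in R 4.3.3 (TMM, filterByExpr by genotype, glmQLFit and glmQLFTest, prior count of 2, Benjamini-Hochberg adjustment, threshold of 0.05). All 12 libraries entered 1 model without covariates, and the code was tested on simulated data. The alternatives were RLE normalization, DESeq2 1.42.0, no filter on low counts, a replicate block, Y-linked expression or small RNA share as a covariate, scaling on hepatocyte genes, 2 groups only, and leaving out each library. The fit on libraries without Y-linked expression was added after the data were seen. With 28826367 to 45266387 counts per library and at least 1866 per member, precision is set by 3 mice per genotype rather than by depth. A chi-square comparison of counts over genes gave at least 40.1 per degree of freedom for each pair of replicates, so none was a duplicate.

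TPM used canonical transcript lengths of GENCODE vM39. Promoter windows were planned from RefSeq, whose table is of another build, and were read from GRCm39 at GENCODE starts instead. Printed stretches stop at any annotated exon, whereas motifs were counted over the full 250 bases, annotated exons included. Tables and figures were made in Python 3.11.15 with numpy 2.4.6, pandas 2.3.3, and, for plots, matplotlib 3.10.9.

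The members and the lists were chosen with earlier results of these data known. The genes named are the members, Mcl1, Sting1, isozymes (1 is not reported here), at most 4 called genes of each list by lowest adjusted p, and the 3 tested genes of at least 10 CPM most like each member. Other genes were named after their values were seen.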

Additional observations from a re-analysis of the deposited data

How the results depend on the processing

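With 3 livers per genotype, the SE of a member's log2 fold change between Mcl1Δhep and WT ran from 0.15 (Otc) to 0.45 (Sds), Y-linked expression was absent in all Mcl1Δhep livers but present in 2 of 3 WT livers, and the small RNA share was highest in 2 Mcl1Δhep livers, so neither can be told apart from genotype in full. For Mcl1Δhep against WT, the 1 member called became 3 with DESeq2, 2 with the replicate block, and 0 with the Y-linked covariate, the small RNA share as a covariate, pan-hepatocyte scaling, 2 groups only, or libraries without Y-linked expression, and 0 to 2 when 1 library was left out. For Mcl1Δhep Sting1-/- against Mcl1Δhep, 2 were called with DESeq2 and 0 to 3 with 1 library left out, and for the average Mcl1 effect 1 and 0 to 1. Calls over all genes for Mcl1Δhep against WT went from 3050 to 1531 with the Y-linked covariate, 407 with the small RNA share, 1178 with 2 groups only, 4 in libraries without Y-linked expression, and 1233 (without WT replicate 2, 1238 without Mcl1Δhep replicate 2, and 1596 without WT replicate 3) to 5232 (without Mcl1Δhep replicate 1) with 1 library left out. For Mcl1Δhep Sting1-/- against Sting1-/- they went from 121 to 461 with DESeq2, 45 with the Y-linked covariate, 192 with pan-hepatocyte scaling, 17 with 2 groups only, 0 in libraries without Y-linked expression, and 1 to 249 with 1 left out (249 without Mcl1Δhep Sting1-/- replicate 3, at most 3 without any other library of these genotypes, and 52, 59, and 65 without WT replicate 2, WT replicate 3, and Mcl1Δhep replicate 2), and for the average effect from 2522 to 1599 with the small RNA share, 363 without Y-linked expression, and 1711 to 4267 (the latter without Mcl1Δhep replicate 1). Pan-hepatocyte scaling moved the share of calls that were higher from 53.4% to 71.8%, from 84.3% to 94.8%, and from 59.2% to 83.5% in these 3. With 1 library left out, edgeR called 0 to 3108 genes between Mcl1Δhep Sting1-/- and Mcl1Δhep and 0 to 1574 for the difference, both highest without Mcl1Δhep replicate 1, and 0 to 22 (without WT replicate 1) between Sting1-/- and WT. The causes of these shifts were not tested.

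The signs that turned, none with a call, were as follows on the log2 scale. With the small RNA share, Cps1 was at 0.13 and Arg1 at −0.39 for Mcl1Δhep against WT, Cps1 at −0.20 for Mcl1Δhep Sting1-/- against Mcl1Δhep, at 0.16 for Sting1-/- against WT, and at −0.35 for the difference, where Arg1 was at 0.11, and Hal at 0.021 for the average effect. In libraries without Y-linked expression, Hal was at −0.28 for Mcl1Δhep against WT, Cps1 at −0.0071 and Cyp2f2 at −0.020 for Mcl1Δhep Sting1-/- against Mcl1Δhep, and Ass1 at −0.036, Otc at 0.13, and Hal at −0.093 for Sting1-/- against WT. With the Y-linked covariate, Cyp2f2 was at −0.054 between the Mcl1-deleted genotypes and Otc at 0.037 and Arg1 at 0.040 between Sting1-/- and WT. Pan-hepatocyte scaling put Asl at 0.027 for Mcl1Δhep against WT and Cps1 at 0.0025 for Mcl1Δhep Sting1-/- against Sting1-/-. Leaving out 1 library gave ranges across 0 for Asl (−0.20 to 0.0014), Arg1 (−0.17 to 0.22), and Hal (−0.54 to 0.22) in Mcl1Δhep against WT. In Mcl1Δhep Sting1-/- against Sting1-/- they were −0.32 to 0.15 for Ass1, −0.36 to 0.10 for Cps1, −0.48 to 0.083 for Sds, −0.29 to 0.13 for Gls2, and −0.70 to 0.070 for Pck1. In Mcl1Δhep Sting1-/- against Mcl1Δhep they were −0.19 to 0.26 for Cps1, −0.56 to 0.23 for Hal, and −0.025 to 0.34 for Cyp2f2. Between Sting1-/- and WT they were −0.34 to 0.029 for Cps1, −0.059 to 0.059 for Otc, and −0.066 to 0.36 for Hal, for the difference −0.00071 to 0.46 for Cps1 and −0.75 to 0.043 for Hal, and for the average effect −0.065 to 0.34 for Pck1. Every other fold change of a member kept its sign under every alternative run.

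Over all genotypes, libraries with the same replicate number had no common direction of deviation (r of −0.54 to 0.25). Between Mcl1Δhep Sting1-/- and Sting1-/-, same-numbered pairs had r of 0.068, 0.25, and 0.18, and pairs of different numbers −0.17 to −0.0061. Whether a replicate number stands for anything these libraries share was not tested. With the replicate block, edgeR called Cyp2f2 (adjusted p = 0.0470) and Sds (log2 fold change 1.01, adjusted p = 0.0495) for Mcl1Δhep against WT, Hal was at −0.060 there and Cps1 at −0.00064 for Mcl1Δhep Sting1-/- against Mcl1Δhep, and 2591 genes were called in place of 3050.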

Other observations

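Genes of fasting and feeding were counted beside Pck1 and Sds. In edgeR, 3 of 14 tested rose and 2 fell between Mcl1Δhep and WT livers (median −0.13). Pdk4, which holds back pyruvate dehydrogenase in the fasted state, rose from 1.73 ± 0.572 to 11.9 ± 4.42 CPM (log2 fold change 2.77, SE 0.36, edgeR adjusted p = 0.00133), and it also rose from 3.47 ± 0.955 to 13.9 ± 4.76 CPM between Sting1-/- and Mcl1Δhep Sting1-/- livers (2.0, SE 0.34, edgeR adjusted p = 0.0305). Fgf21, a hormone of the liver, rose from 0.315 ± 0.187 to 6.02 ± 8.39 CPM (4.28, SE 1.36, edgeR adjusted p = 0.0444). Srebf1, a regulator of lipid synthesis (−1.30, SE 0.29, edgeR adjusted p = 0.0114), and Fasn, fatty acid synthase (−1.54, SE 0.42, edgeR adjusted p = 0.0250), fell. Between Mcl1Δhep and WT, Fgf21 lost the call with the Y-linked covariate, and Pdk4, Srebf1, and Fasn kept it. With the small RNA share as a covariate, Pdk4 was the one of these called, and in libraries without Y-linked expression none was.

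Of 12 tested clock genes, 0 rose and 1 fell in the same comparison (median −0.37). Nr1d1, a repressor in the clock loop, went from 24.1 ± 4.41 to 13.1 ± 4.28 CPM (−0.88, SE 0.23, edgeR adjusted p = 0.0206), and it was not past the threshold with the Y-linked covariate, with the small RNA share as a covariate, or in libraries without Y-linked expression. The labels give neither the hour of sampling nor the feeding state.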
